A study of Mus musculus with 8 samples.

Results

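Runx1 binding was set against the histone mark H3K27me3 in EML_C1 cells, a mouse haematopoietic progenitor line that grows in stem cell factor. Each antibody's replicate peak lists were merged, and a merged region was kept where both replicates had a peak, which left 44026 Runx1 regions covering 22.6 Mb and 110650 H3K27me3 regions covering 306 Mb. These come from 4 of the 8 libraries in the series, whose 6 libraries with an antibody hold 866451 peaks. All libraries came from the same line, labelled strain C57BL/6 and passage 4-5, cultured with 200 ng/ml stem cell factor. The Runx1 libraries (2 replicates) were fixed with 2 mM disuccinimidyl glutarate for 60 min and then 1% formaldehyde for 60 min, as were the Ezh2 libraries (2 replicates) used below for comparison, and the H3K27me3 libraries (2 replicates) with 1% formaldehyde alone for 10 min. The series labels 1 input library for Ezh2 and Runx1 and another for H3K27me3, so the fold over input of Runx1 and of H3K27me3 has a different denominator as well as a different fixation. No label says that the replicates were separate cultures, so the spread between them may be technical. Transcripts were not measured, so the progenitor identity of the line could not be checked against expressed markers.

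RUNX1 is the DNA-binding subunit of core binding factor. It binds DNA together with its partner CBFB and is needed for the emergence of definitive blood stem cells and for lymphoid and megakaryocytic differentiation. H3K27me3 is written by Polycomb repressive complex 2, whose catalytic subunit is EZH2, and is found over silent developmental genes. In blood progenitors it lies over regulators of other tissues and over lineage genes that are not in use.

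Promoters of the genes with the strongest Runx1 peaks beside the mark are shown so that the sequence under such a summit can be read, together with the Runx1 only and the H3K27me3 only genes of highest fold that have an entry in the promoter table. Each runs 5′ to 3′ on the strand of its gene, from 250 bases before the annotated start to 50 after it, from RefSeq on GRCm38.p6. Capitals mark a RUNX core, searched as TGTGGT or TGCGGT on both strands.
Agrn (Runx1 beside the mark, chr4:156197439-156197738, minus strand): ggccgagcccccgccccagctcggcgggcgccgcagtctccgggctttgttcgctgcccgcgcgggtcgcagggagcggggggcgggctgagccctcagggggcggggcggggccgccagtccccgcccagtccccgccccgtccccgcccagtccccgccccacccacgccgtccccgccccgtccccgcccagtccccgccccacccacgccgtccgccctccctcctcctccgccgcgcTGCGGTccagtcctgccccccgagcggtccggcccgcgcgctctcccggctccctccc
Sgtb (Runx1 beside the mark, chr13:104109491-104109790, plus strand): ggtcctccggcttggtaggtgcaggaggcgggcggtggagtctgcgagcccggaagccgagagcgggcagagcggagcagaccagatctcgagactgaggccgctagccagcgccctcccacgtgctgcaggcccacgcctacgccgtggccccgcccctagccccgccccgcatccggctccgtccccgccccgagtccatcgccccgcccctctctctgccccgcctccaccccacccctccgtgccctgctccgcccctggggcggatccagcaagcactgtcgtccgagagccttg
Nln (Runx1 beside the mark, chr13:104109565-104109864, minus strand): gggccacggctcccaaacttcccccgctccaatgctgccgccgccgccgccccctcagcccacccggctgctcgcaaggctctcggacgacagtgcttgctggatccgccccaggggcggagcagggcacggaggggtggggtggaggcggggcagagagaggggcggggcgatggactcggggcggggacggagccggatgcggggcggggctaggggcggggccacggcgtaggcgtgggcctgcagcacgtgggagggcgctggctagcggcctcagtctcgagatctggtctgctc
Plekho2 (Runx1 only, chr9:65580038-65580337, minus strand): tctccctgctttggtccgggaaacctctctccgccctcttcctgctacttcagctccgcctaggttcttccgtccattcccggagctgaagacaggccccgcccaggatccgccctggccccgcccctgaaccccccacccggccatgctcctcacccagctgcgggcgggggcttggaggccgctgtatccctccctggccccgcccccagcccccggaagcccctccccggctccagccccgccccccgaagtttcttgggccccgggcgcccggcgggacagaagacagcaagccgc
Zswim5 (H3K27me3 only, chr4:116877152-116877451, plus strand): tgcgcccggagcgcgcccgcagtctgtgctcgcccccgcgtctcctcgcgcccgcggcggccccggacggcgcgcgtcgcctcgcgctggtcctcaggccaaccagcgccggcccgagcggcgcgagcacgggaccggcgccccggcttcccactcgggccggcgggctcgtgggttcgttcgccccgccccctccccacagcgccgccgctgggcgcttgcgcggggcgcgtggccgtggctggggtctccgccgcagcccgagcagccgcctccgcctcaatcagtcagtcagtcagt
For Agrn the first of its 2 listed promoters is given. It held 1 core and the other 4 none, and a core was found in 21.6% of all 21263 promoters. The Runx1 summit lay 86 and 95 bases before the Agrn start in replicates 1 and 2, and 102 and 111 bases before the Plekho2 start. The Agrn core lay between the summit and the start, next to the start and not under the summit. Sgtb and Nln start on opposite strands of overlapping windows and share 1 Runx1 region. Its summit lay 54 and 52 bases before the Sgtb start. By promoter window, a core was present in 23.5% of the 311 promoters that touched both a Runx1 and an H3K27me3 region, 23% of those that touched Runx1 only, 20.2% of those that touched H3K27me3 only and 20.7% of those that touched neither. Median GC content differed more than core content, at 67.7% of bases with both, 62.7% with Runx1 only, 57.3% with H3K27me3 only and 48.3% with neither. A match is a match of letters only. With promoters classed by the calls at the ends of their gene, the core shares were 23.3% with both and 21.9% with Runx1 only. They were 20.4% with H3K27me3 only and 21.8% with neither, so Runx1 only and neither were then close. A promoter sequence was found for 17492 of the 21887 protein-coding genes, or 79.9%, so these shares do not cover all genes.

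The Runx1 lists held 64059 and 66153 peaks, with a median fold over input of 3.11 and 3.60, and the H3K27me3 lists held 220455 and 178423 peaks, with a median fold of 2.06 and 2.08. The lists keep weak peaks. Of the Runx1 peaks 60.0% and 69.3% passed q of 0.01, whereas 6.13% and 1.34% of the H3K27me3 peaks did, so the marked regions rest mostly on calls that miss that limit. Read totals are unknown because the files give peaks and not reads. With 2 libraries for each antibody, an exact permutation test cannot give a two-sided p below 0.333. Values are therefore given for each replicate with no test, and the spread is that of the 4 pairs of single lists, each of 1 Runx1 library with 1 H3K27me3 library.

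Most Runx1 regions did not touch the mark. Of the 44026 Runx1 regions, 2880 touched an H3K27me3 region by at least 1 base, or 6.54%, while the marked regions covered 15.2% of the 2004 Mb of genome that could be called. That callable genome leaves out stretches of over 50 kb with no peak in any list. The single-list pairs gave 5.57% to 13.3%. The value depended on Runx1 replicate 2: without it the share was 10.8%. Runx1 peaks seen in replicate 1 alone touched the mark in 21.2% of cases (4042 of 19102, median fold 2.34), and those seen in replicate 2 alone in 9.66% (2067 of 21394, median fold 2.48).

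The distance from each Runx1 summit, the base of highest signal in a peak, to the nearest H3K27me3 edge was measured next. Inside the mark there were 2510 and 2500 summits in replicates 1 and 2, or 8.21 and 8.18 per Mb. More than 10 kb outside it there were 31306 and 31299, or 30.5 per Mb in each replicate. The log2 ratio of inside over far outside was −1.89, and it was negative in all 4 single-list pairs, at −2.06 to −1.02. Without Runx1 replicate 2 it was −0.98. The densities of the 2 replicates are close because both are counted on the same regions, with summits a median of 22 bases apart. The replicate summits fell on different sides of an edge or a 1 kb or 10 kb distance for 146 regions, or 0.332%.

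Runx1 was also sparse just outside the mark. Within 1 kb of an edge there were 1849 and 1874 summits, or 10.4 and 10.5 per Mb, against 30.5 per Mb far outside. The log2 ratio was −1.55, and −2.26 to −1.73 in the single-list pairs, which lie below the value of the merged lists. Without H3K27me3 replicate 1 it was −2.17, and without H3K27me3 replicate 2 it was −2.39. With the 20000 H3K27me3 peaks of lowest p per list the sign turned, to 0.21, with 25.7 summits per Mb just outside and 22.3 far outside. That far band also held weaker marked regions, and the density far outside all marked regions was 30.5 per Mb. Against all marked regions, summits were thinnest close to the edge, at 7.96 and 8.07 per Mb in the first 0.5 kb. The density was 13.8 and 14.0 per Mb from 0.5 to 1 kb, 16.0 per Mb in both replicates from 2 to 5 kb, 19.3 from 5 to 10 kb and 23.3 and 23.2 from 10 to 20 kb. It was highest from 50 to 100 kb, at 36.1 per Mb in both replicates, and 32.1 and 32.0 beyond 100 kb. Outside the mark the density per callable Mb thus climbed with distance, and the climb ran on past 20 kb. Blank stretches of over 50 kb are left out of the callable genome, which raises the density mostly in the far bands. Over the whole span, blanks included, it was 10.4 per Mb within 1 kb and 18.7 beyond 10 kb. The other bands were not counted over the whole span, so the climb past 10 kb was not told apart from this choice.

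Inside the mark the density had a low point a short way in. It was 9.24 and 8.98 per Mb within 0.25 kb of the edge, 5.97 and 5.86 from 0.25 to 0.5 kb, 7.88 and 7.95 from 1 to 2 kb and 11.5 and 11.4 beyond 5 kb. Marked summits thus lay on both sides of that low point. Within 0.25 kb of the edge lay 19.8% and 19.4%, and deeper than 1 kb 54.2% and 54.6%, shares that also follow the bases at each depth. Only wide regions hold the deepest bases, so depth was not told apart from width. Ezh2, the enzyme that lays down the mark, had 188 and 187 summits per Mb inside, 16.8 and 18.1 within 1 kb and 0.865 and 0.864 far outside, and 356 per Mb deeper than 5 kb. Ezh2 was thus dense inside the mark and nearly absent far outside, the opposite order to Runx1.

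**Figure D1:**
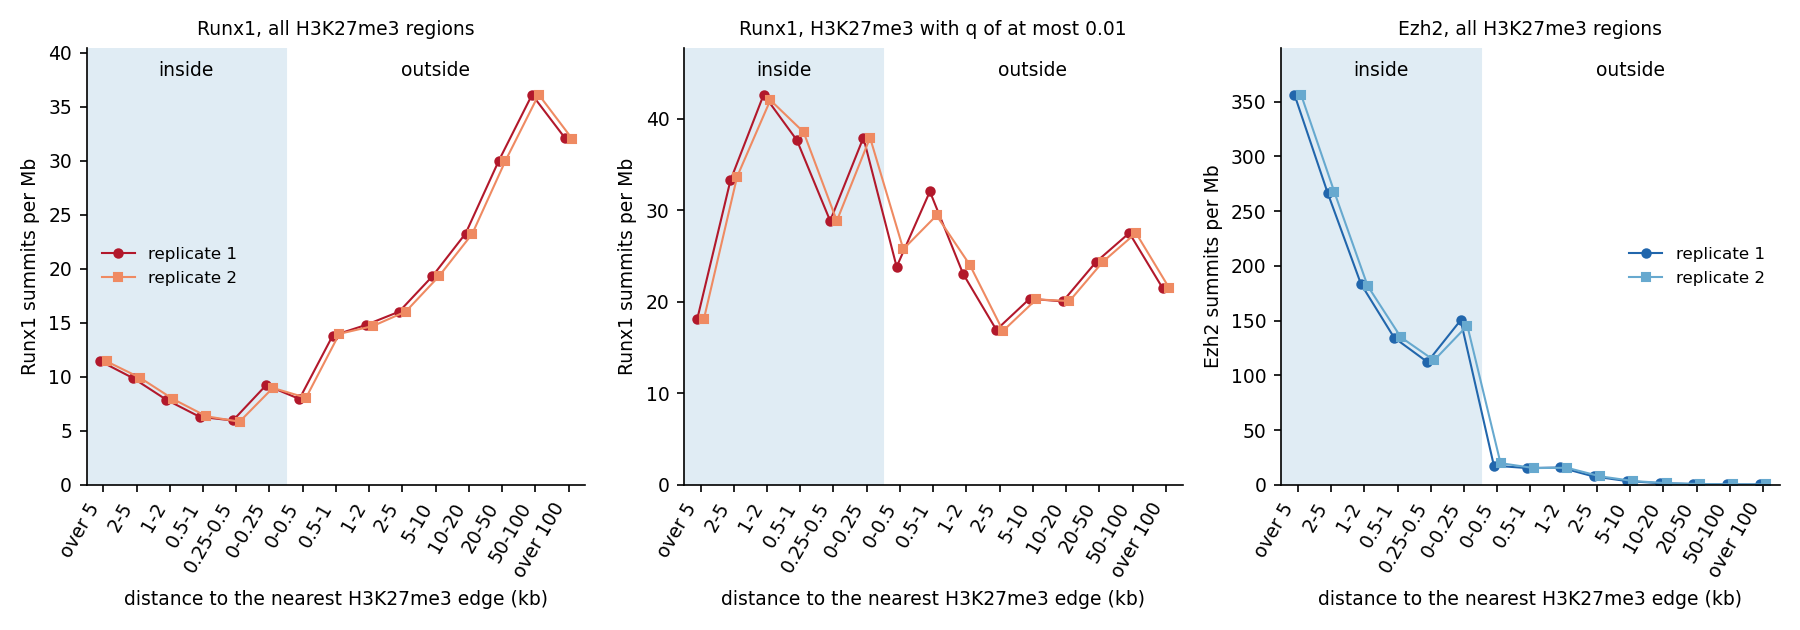
Summits per Mb of callable genome (vertical axes, each from 0) against distance to the nearest H3K27me3 edge in kb (horizontal axes, inside the mark on the left), for Runx1 against all H3K27me3 regions, Runx1 against H3K27me3 with q of at most 0.01, and Ezh2 against all regions; points joined by lines are the replicates. Runx1 against all regions lies at 8.21 and 8.18 per Mb over the whole inside and climbs outside to 36.1 per Mb at 50 to 100 kb, whereas Runx1 against the stricter regions is higher inside, at 31.5 and 31.6 per Mb, and Ezh2 falls away at the edge.

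The distance of unmarked Runx1 to the mark depended on how the mark was called. The median unmarked summit was 34.9 kb from the nearest edge in each replicate, with quartiles of 10.2 and 86.2 kb in replicate 1. The single-list pairs gave 20.9 to 27 kb, below the value of the merged lists. It was 20.6 kb with H3K27me3 in either replicate, 139 kb with the 20000 H3K27me3 peaks of lowest p per list and 427 kb with H3K27me3 of q of at most 0.01. Against all marked regions 4.45% and 4.51% were within 1 kb, 16.0% in each replicate were within 5 kb, and 21.1% were beyond 100 kb. The median was 27.2 kb without H3K27me3 replicate 1 and 22.7 kb without H3K27me3 replicate 2. Gaps of up to 50 kb between neighbouring marked regions held fewer Runx1 summits per callable Mb than longer gaps. In gaps of 0.5 to 1 kb Runx1 had 8.31 and 8.65 summits per Mb, and in gaps of 1 to 2 kb 13.8 in each replicate. It had 13.8 in gaps of 10 to 50 kb and 30.7 in gaps of over 50 kb. Only gaps of over 50 kb can lose blank stretches from the callable genome, which raises their density. Gaps were not counted over the whole span, so the size of this contrast is not known.

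The weak and the strong mark calls differed in this. With H3K27me3 peaks limited to q of at most 0.01, 1573 regions of 9.13 Mb were left, and Runx1 had 31.5 and 31.6 summits per Mb inside them, 27.9 and 27.6 within 1 kb and 22.0 far outside. The log2 ratios were 0.53 inside and 0.34 just outside, the opposite sign to that of all regions. Far outside was set here by distance from the stricter regions, so it also held weaker marked regions. More than 10 kb from any of the 110650 marked regions the density was 30.5 per Mb, so the density compared against changed as well. Its part in the sign change was not tested. Of the bases in these stricter regions 15.8% lay within 1 kb of a gene end. Of the bases more than 10 kb from any of the 110650 marked regions 3.56% did, and Runx1 itself is dense at gene ends. More than 1 kb from gene ends the ratio inside the stricter regions was 0.06, with 18.3 and 18.6 summits per Mb inside and 17.7 far outside. Within 1 kb of gene ends it was −0.44, with 102 and 101 per Mb inside and 138 in each replicate far outside. This split was chosen after seeing the data, and the part of gene-end position in the sign change was not tested further.

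For all marked regions the lower density held on both sides of that split. Within 1 kb of gene ends Runx1 had 37.6 summits per Mb inside the mark in each replicate and 190 far outside, a log2 ratio of −2.34. More than 1 kb from gene ends it had 6.84 and 6.81 inside and 24.6 far outside, a ratio of −1.85. Just outside the mark the ratios were −1.98 within 1 kb of gene ends and −1.43 elsewhere. Strong and weak Runx1 peaks differed in the size of the gap but not in its sign. Regions with a fold of at least 10 had 1.08 summits per Mb inside and 6.32 far outside, a log2 ratio of −2.55, and regions with a fold under 10 had 7.14 and 7.10 inside and 24.1 far outside, a ratio of −1.76.

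Counted over the whole span of the chromosomes, blank stretches included, the far density was 18.7 per Mb and the log2 ratios were −1.19 inside and −0.85 just outside. The lower density inside than outside was seen in both replicates on each of the 19 autosomes. The mark covered 0.987% of the callable Y chromosome and held 0 summits there, too little to compare. The X chromosome differed, with 14 and 15 summits in 0.694 Mb of mark, or 20.2 and 21.6 per Mb inside and 17.0 outside. The 19 autosomes had 8.19 and 8.15 per Mb inside and 24.6 outside. Of the marked regions on the X 19.3% lay within 1 kb of a gene end, against 8.19% on the autosomes. The part of this in the contrast was not tested.

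Runx1 peaks inside the mark were weaker than those outside. The 2508 regions with a summit inside, taken at the midpoint of the replicate summits, had a median fold of 3.62 and 4.15, and the 31300 regions more than 10 kb away had 4.32 and 5.19. Fold of at least 10 was reached by 13.2% of regions inside and 20.7% of those far outside. The 372 regions that touched the mark with their summit outside it were the strongest group, with a median fold of 5.80 and 6.42, a fold of at least 10 in 32.8% and the widest median width, 497 bases, against 366 bases inside. Width moved with this class, and its part in the contact was not tested.

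The 1487 regions with a summit within 1 kb and no contact had a median fold of 4.19 and 5.33, against 4.32 and 5.19 far outside. For all summits within 1 kb the log2 ratio of the medians was 0.06, and the single-list pairs gave −0.30 to −0.08, so the sign changed with how the lists were joined and no direction was found in strength just outside the mark. Of the 1487 regions with no contact 13.7% lay within 1 kb of a gene end, against 23.9% of regions more than 10 kb away, but of the 372 that touched the mark 28.2% did. Contact with an Ezh2 region fell off with distance. It was found for 44.9% of regions inside (1126), 33.3% of those touching, 10.9% of those within 1 kb, 2.84% of those at 1 to 10 kb and 0.601% of those beyond 10 kb, against 4.17% of all Runx1 regions.

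**Figure D2:**
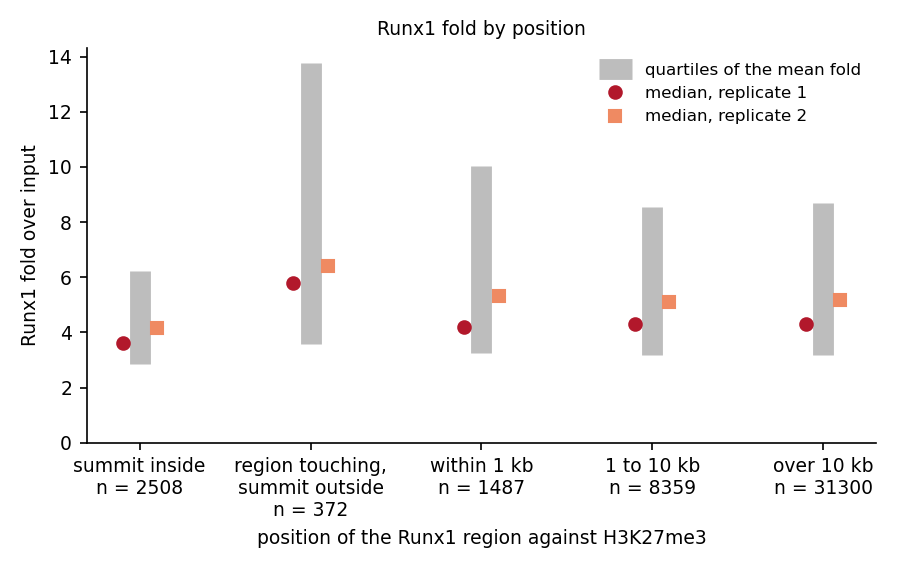
Median Runx1 fold over input (vertical axis, from 0) in replicate 1 (circles) and replicate 2 (squares) by position of the region against H3K27me3 (horizontal axis, with n), with grey bars from the lower to the upper quartile of the mean fold. Regions with a summit inside have the lowest medians, 3.62 and 4.15, and regions that touch the mark with the summit outside the highest, 5.80 and 6.42.

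The strongest Runx1 regions inside the mark lay within 1 kb of a gene end, with 1 exception. That exception, at chr6:51178050-51179288, had a fold of 177 and 150 with its summit 171 and 149 bases inside a 7036-base marked region, and its nearest gene, Gm38821, was 44244 bases away. At Spsb1, whose product is an adaptor of a ubiquitin ligase, the region at chr4:149954536-149955882 had a fold of 163 and 148, with its summit 2557 and 2522 bases inside a 9537-base marked region. At Nkd1, an inhibitor of Wnt signalling, the region at chr8:88520824-88521876 had a fold of 137 and 130, with its summit 2426 and 2418 bases inside. The mark there had a fold of 2.78 and 2.51, so both signals were above the median of their lists.

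Asap3, a GTPase-activating protein for ARF proteins, had a Runx1 region with a fold of 128 and 106 that lay 6070 and 6066 bases inside a marked region of 31500 bases. Pkp2, a desmosome protein, had one at chr16:16212950-16213740 with a fold of 116 and 90.8. All 5 also touched an Ezh2 region. None of the marks under Spsb1, Nkd1 and Asap3 reached q of 0.01 at the gene end.

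The strongest regions just outside the mark were at Agrn, which encodes the synapse-organising proteoglycan agrin, and at the shared start of Sgtb and Nln, a co-chaperone and a neuropeptide-cleaving protease. The Agrn region, whose promoter is given above, had a fold of 200 and 169, with its summit 188 and 197 bases from a marked region of 1874 bases. The Sgtb and Nln region had a fold of 192 and 155, with its summit 179 and 177 bases from a marked region of 691 bases. At Frmd6, a regulator of the Hippo pathway, the fold was 138 and 111 and the distance 569 and 575 bases. Within the body of Lef1, a Wnt-responsive transcription factor of lymphoid progenitors, a region at chr3:131208235-131209288 had a fold of 111 and 112 and lay 582 and 581 bases outside a 6794-base marked region. The ends of Lef1 carried the mark alone, with a fold of 3.66 and 2.90, so Runx1 lay beside a marked region within the gene body and not at its ends.

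Seen from the mark, few regions held Runx1. Of the 110650 marked regions, 2279 and 2270 held a summit, or 2.06% and 2.05%, and 1.63% and 1.65% had one within 1 kb outside. Most of those with a summit held 1 (2085 and 2077 regions), and 29 in each replicate held 3 or more. Regions that held a summit were wider, with a median of 5536 and 5617 bases against 1627 and 1626 bases for those without. Per Mb of mark, which takes width into account, the density was 6.87 in regions under 1 kb and 5.54 at 1 to 2 kb. It was 7.16 at 2 to 5 kb, 9.35 at 5 to 15 kb and 11.7 at 15 kb and over, as means of the replicates. The direction depended on position. Among marked regions within 1 kb of a gene end the mean density was 32.5 under 1 kb (30 and 28 summits). It was lower there at 15 kb and over, at 13.5. Among regions elsewhere it was 5.68 and 10.3 in the same order. The share of marked regions at a gene end rose with width, from 4.17% under 1 kb to 40.8% at 15 kb and over.

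Position and Ezh2 separated the marked regions more than their fold did. Regions within 1 kb of a gene end had 17.9 Runx1 summits per Mb and those elsewhere 6.26, as replicate means. Regions that touched Ezh2 had 11.6 per Mb and those that did not 4.66. Those that touched Ezh2 were also wider, with a median of 3849 bases against 1350, and more often at a gene end, 16.2% against 5.55%. The split by Ezh2 was not made within classes of width or position, so these traits were not told apart. The densities in marked regions of low, middle and high fold, split into 3 groups of equal number, were 7.24, 6.17 and 9.80 per Mb, which is no steady order. Within the regions at gene ends these densities were 18.8, 15 and 18.4.

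**Figure D3:**
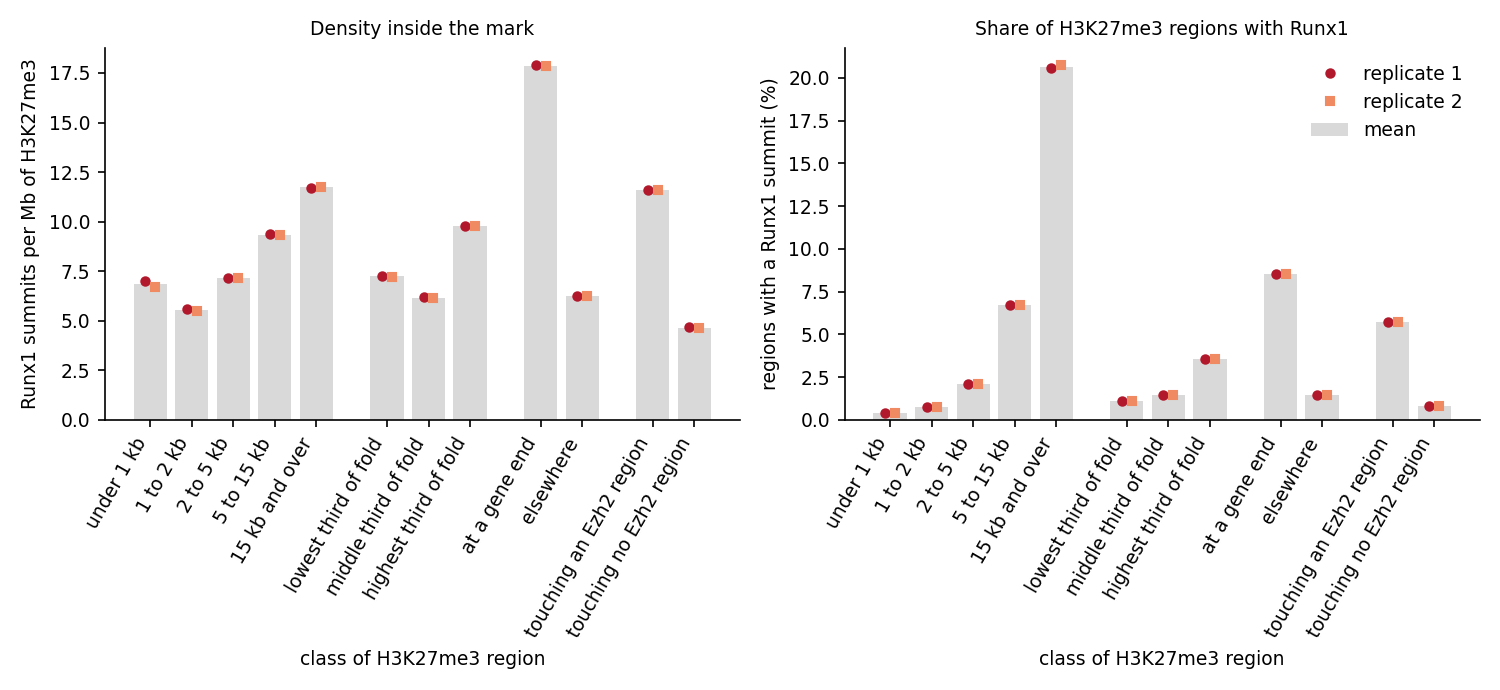
Runx1 summits per Mb of H3K27me3 (left) and the share of H3K27me3 regions that hold a Runx1 summit in percent (right) by class of marked region (horizontal axes), with bars from 0 for the mean and points for the replicates. Regions at a gene end stand highest in density, at 17.9 per Mb, and regions of 15 kb and over stand highest in share, at 20.6%.

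The marked regions with most Runx1 summits held 5 each in both replicates. One was the 35466-base region at Dlgap4, a postsynaptic scaffold gene, and the other a 25109-base region 6730 bases from Epha2, an ephrin receptor. The 11791-base region at Vegfa, the angiogenic growth factor, the 8119-base region near Tle2, a co-repressor, and the 7995-base region at Ccnd2, a G1 cyclin, held 4 each. Some of the widest marked regions held no Runx1 summit in either replicate. They included 69536 bases at Shb, a signalling adaptor, 68227 bases at Dab2ip, a RAS GTPase-activating protein, and 64272 bases at Alx4, a homeobox gene of limb and skull. At Dab2ip 1 summit lay within 1 kb outside the region in each replicate.

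Genes were then classed by a peak in both replicates within 1 kb of the same gene end, over 21887 protein-coding genes. Runx1 lay at 9910 genes (45.3% of all), H3K27me3 at 6693 (30.6%) and both at 1138 (5.2%), which left 8772 with Runx1 only, 5555 with H3K27me3 only and 6422 with neither. Of the genes with both, 779 carried them at the same end (3.56% of all) and 359 at opposite ends only, and in 629 a Runx1 and an H3K27me3 region touched within the window. Runx1 was found at 17.0% of genes with H3K27me3 and 57.7% of genes without. The log2 ratio was −1.76, and −1.66 to −1.54 in the single-list pairs. The pairs gave 1426 to 1814 genes with both. Both values moved with the window and the threshold. With windows of 5 kb Runx1 was at 41.5% of genes with H3K27me3 and 70.2% of genes without, a log2 ratio of −0.76, and 4036 genes had both. With H3K27me3 of q of at most 0.01 it was at 30.2% of genes with H3K27me3 and 45.7% of genes without, a ratio of −0.60, and 200 genes had both.

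The lower share held at each end of a gene where the strand was known. At the start, Runx1 lay at 12.6% of genes with H3K27me3 there and 53.6% of genes without. At the far end it lay at 2.92% of genes with H3K27me3 there and 9.79% of genes without. Genes with both had weaker Runx1 than genes with Runx1 only, with a median fold of 5.85 and 6.27 against 7.65 and 7.68. A fold of at least 10 was reached by 31.5% of genes with both (359) and 39.4% of genes with Runx1 only (3458).

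Runx1 was not rarer at genes with more of the mark. It was at 15.6%, 15.7% and 19.7% of marked genes of low, middle and high mark fold, again in 3 groups. The median H3K27me3 fold was 2.46 and 2.2 in genes with both and 2.38 and 2.19 in genes with H3K27me3 only. With H3K27me3 at q of at most 0.01, 200 of the 1138 genes with both still carried the mark, against 462 of the 5555 with H3K27me3 only. Ezh2 lay at an end of 72.2% of genes with both (822), 3.68% of genes with Runx1 only and 49.6% of genes with H3K27me3 only.

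Genes with the highest Runx1 fold among those with both at the same end were led by Dgat2, an enzyme of triglyceride synthesis, at 277 and 259. Its summit lay 1140 and 1147 bases outside a marked region of 31406 bases. Agrn, Sgtb and Nln came next, with summits under 200 bases outside the mark, and then Spsb1, Nkd1 and Asap3, with summits inside. Rhpn2 had a fold of 116 and 98.6, with its summit 334 and 349 bases outside. The mark at these 8 genes averaged a fold of 2.33 to 2.69.

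Genes with the highest mark among those with both were a separate set with modest Runx1. Wasf1, an actin regulator, and Cdc40, a splicing factor, start back to back and shared a mark with a fold of 6.22 and 3.86 and a Runx1 region with a fold of 6.16 and 6.85, its summit 91 and 110 bases outside the mark. Arhgap28, a GTPase-activating protein, had a mark of 5.45 and 3.65 and Runx1 of 7.62 and 6.37, its summit 649 and 641 bases inside. Galnt3, a glycosyltransferase, had a mark of 5.22 and 3.66 and Runx1 of 5.96 and 8.21, its summit 138 and 64 bases inside. The other 4 were Slc22a21, Raver2, Efna3 and D930020B18Rik, with a mean mark of 4.22 to 4.34 and a mean Runx1 of 4.51 to 8.93. In all 8 the mark passed q of 0.01 and replicate 1 gave the higher mark fold.

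**Figure D4:**
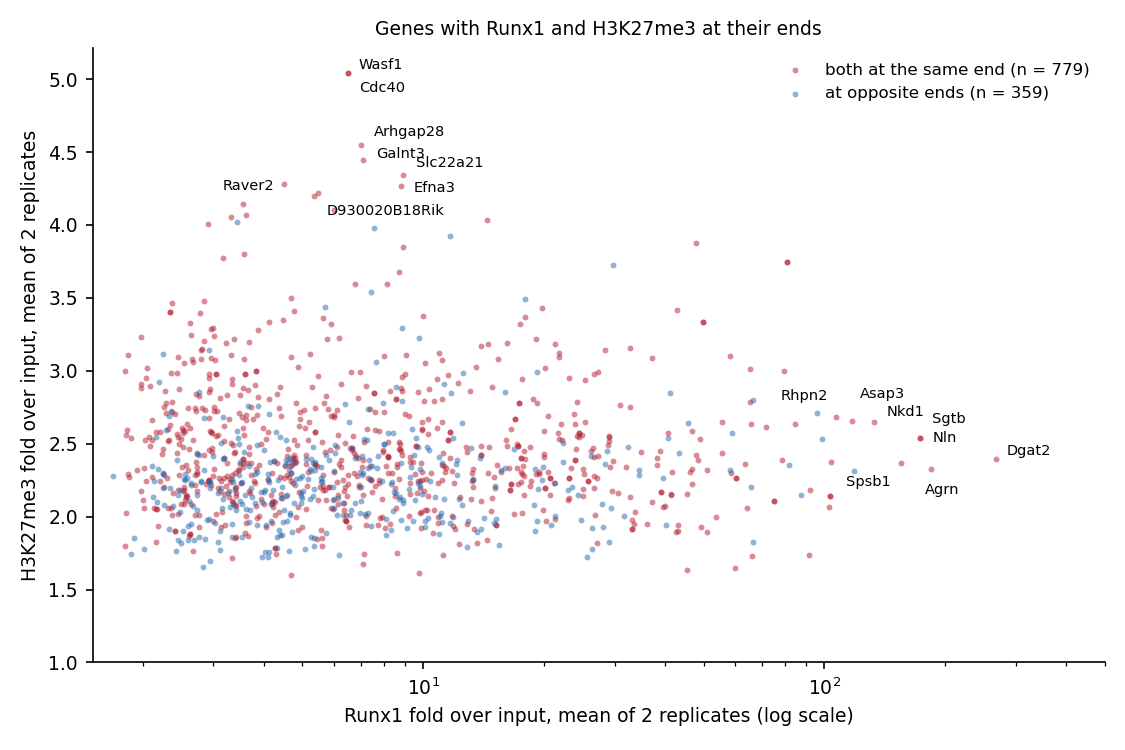
Runx1 fold over input (horizontal axis, log scale) against H3K27me3 fold over input (vertical axis), each the mean of the replicates, for the 1138 genes with both, coloured by whether both lie at the same end (779) or at opposite ends only (359). The genes named for the highest Runx1 fold lie at the right with a mark of 2.33 to 2.69, and those named for the highest mark lie at the top with a Runx1 fold of 4.51 to 8.93.

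Runx1 only genes of highest fold had the mark at varied distances. Plekho2, a pleckstrin homology domain protein, had a fold of 261 and 213, with its summit 21216 and 21207 bases from the nearest mark. Hddc2 had 234 and 206 at 8012 and 8013 bases. Uba3, a subunit of the NEDD8-activating enzyme, had 208 and 161 at 47154 and 47148 bases, and Syap1 on the X chromosome had 202 and 159 at 195284 and 195289 bases. H3K27me3 only genes of highest fold were Eya1, a developmental phosphatase and co-activator, with a mark of 6.06 and 6.00, Hectd2 with 6.52 and 4.61, Zswim5 with 6.81 and 3.98 and Reps2 with 6.36 and 3.81. All 4 carried Ezh2 at an end, and none of the 4 Runx1 only genes did.

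A Runx1 summit just outside the mark lay at an end of 317 genes (1.45% of all), of which 257 also had the mark within 1 kb of an end and 60 did not. The median Runx1 fold at these genes was 7.73. They accounted for 269 of the 1801 Runx1 regions with a summit within 1 kb of an edge in both replicates, so most such regions lay elsewhere. Beside the genes above, Dynlt1a, a dynein light chain, had a fold of 118 and 105 with its summit 872 and 868 bases outside.

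The side on which the mark lay differed at starts with Runx1. Among unmarked starts with an H3K27me3 region within 2 kb, the 451 with Runx1 within 1 kb had the mark upstream in 68.1% (307), on the gene body side in 23.1% (104) and on both sides in 8.87% (40). The 1120 starts without Runx1 had it upstream in 32.2% (361), on the gene body side in 49.6% (555) and on both sides in 18.2% (204). Within 5 kb the mark was upstream only in 79.7% of 1110 starts with Runx1 and 30.3% of 1906 without. Transcription was not measured here, so its part in this was not tested.

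Gene lists of blood and of other tissues fell into the 4 classes in different ways. Over all genes 5.2% had both, 40.1% Runx1 only, 25.4% H3K27me3 only and 29.3% neither, and each list's counts are to be read against these shares. The 11 genes of the RUNX family and its partners had Runx1 only in 10 and both in none. Runx1 itself had a fold of 56.0 and 72.0, with its summit 227216 and 227221 bases from the nearest mark. Ribosomal protein genes had Runx1 only in 36 of 40 (90%, against 40.1% of all genes) and both in none, led by Rps23 at 39.5 and 51.6. Hox genes, the homeobox genes of body axis patterning, had H3K27me3 only in 36 of 39 (92.3%, against 25.4% of all genes) and both in none. These lists are small beside the 5.2% of all genes with both, so nothing is read from the absence of such genes in them.

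Among 32 regulators of stem and progenitor cells, 18 had Runx1 only (56.2%, against 40.1% of all genes), 6 H3K27me3 only (18.8%, against 25.4%) and 4 both (12.5%, against 5.2%). Those with both included the transcription factors Sox17, Gfi1 and Hlf. Hlf, a stem cell factor, had a Runx1 fold of 21.9 and 21.8, with its summit 165 and 147 bases inside. Gfi1, a repressor that restrains stem cell proliferation, had 7.35 and 8.94, with its summit 625 and 596 bases outside. Sox17, an endothelial and fetal stem cell factor, had a weak peak of 2.62 and 3.84, with its summit 313 and 308 bases inside. The Runx1 of these 3 genes thus lay close to an edge of the mark. Erg, Bcl11a and Mycn had the mark only, with a fold of 3.24 and 3.8 at Erg, an ETS factor of stem cells.

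T lymphoid genes had the highest share with both, 7 of 34 (20.6%, against 5.2% of all genes), with 9 Runx1 only (26.5%, against 40.1%) and 10 H3K27me3 only (29.4%, against 25.4%). At Hes1, a Notch target, Runx1 was 25.3 in each replicate and its summit lay 8404 and 8402 bases inside a 30101-base mark. At Id3, an inhibitor of E proteins, it was 25.6 and 24.2, with its summit 5379 and 5403 bases inside. Tcf7, a T cell specification factor, had its summit 1368 and 1363 bases inside, and Notch1, the receptor, 1225 and 1173 bases inside. Both Hes1 and Id3 thus had Runx1 deep in the mark. Cd3e, a T cell receptor chain, had a weak peak of 3.00 and 3.94 inside, Cd2, a surface adhesion molecule, had a peak 652 and 647 bases outside, and Il2ra, an interleukin-2 receptor chain, had the 2 at opposite ends. Cd3d, the neighbouring receptor chain, had Runx1 only at 55.6 and 65.7, 7278 and 7293 bases from the mark.

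B lymphoid genes had both in 2 of 29, Bach2 and Blnk, a share of 6.90% that is near the 5.2% of all genes. They had Runx1 only in 9 (31.0%, against 40.1%) and H3K27me3 only in 11 (37.9%, against 25.4%), the last including Prdm1, the plasma cell regulator, at 3.81 and 3.08. Myeloid genes had both in 3 of 28 (10.7%). Of these Klf4, a monocyte factor, had a Runx1 fold of 31.7 and 25.2 with its summit 1617 and 1605 bases inside a mark of 3.72 and 2.57, and Cebpb, a granulocyte factor, had a weak peak of 1.95 and 3.02. The other was Gfi1. Spi1, which encodes PU.1, had Runx1 only at 33.1 and 33.2, 109666 and 109661 bases from the mark. Erythroid and megakaryocytic genes had both in 2 of 25 (8.0%), Gp9, a platelet glycoprotein, and Sptb, a red cell spectrin, and mast cell, basophil and eosinophil genes in none of 19.

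Genes of other tissues had the mark with little Runx1. Among 70 transcription factors of other tissues 51 had H3K27me3 only (72.9%, against 25.4% of all genes), 3 Runx1 only (4.29%, against 40.1%) and 1 both, which was Hnf4a, a liver factor, with a Runx1 fold of 6.80 and 7.28 and its summit 233 and 221 bases outside the mark. Among 37 secreted developmental signals 26 had H3K27me3 only (70.3%), 0 Runx1 only and 4 both (10.8%). Of those 4, Wnt10b, a Wnt ligand, had 22.4 and 21.6 with its summit 1953 and 1943 bases inside, and Dhh, a hedgehog ligand, had 20.8 and 17.6 with its summit 4982 and 4983 bases outside. Fgf3 and Wnt3a had weaker Runx1, at 8.36 and 7.19 and at 3.36 and 3.02. Of 36 neuronal genes 23 had H3K27me3 only (63.9%) and 4 both (11.1%), each of the 4 with a mean Runx1 fold of 3.04 to 4.40.

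Polycomb and chromatin regulators were mostly bound by Runx1 without the mark, 26 of 35 (74.3%, against 40.1% of all genes). The 5 with both (14.3%, against 5.2%) were Bmi1, Phf19, Phc3, Kdm6b and Cbx8, and in each of them the Runx1 summit lay outside the mark. Bmi1, a ring finger protein of Polycomb repressive complex 1, had a Runx1 fold of 7.96 and 9.75 at 848 and 899 bases from the mark. Cbx8, which binds the mark, had 18.8 and 13.6 at 709 and 708 bases, and Kdm6b, which removes it, had 18.3 and 17.0 at 514 and 472 bases. Of 17 cell cycle inhibitors and tumour suppressors 13 had Runx1 only (76.5%), 2 H3K27me3 only (11.8%) and 1, Cdkn2a, both, with a Runx1 fold of 2.60 and 2.42 inside the mark.

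**Figure D5:**
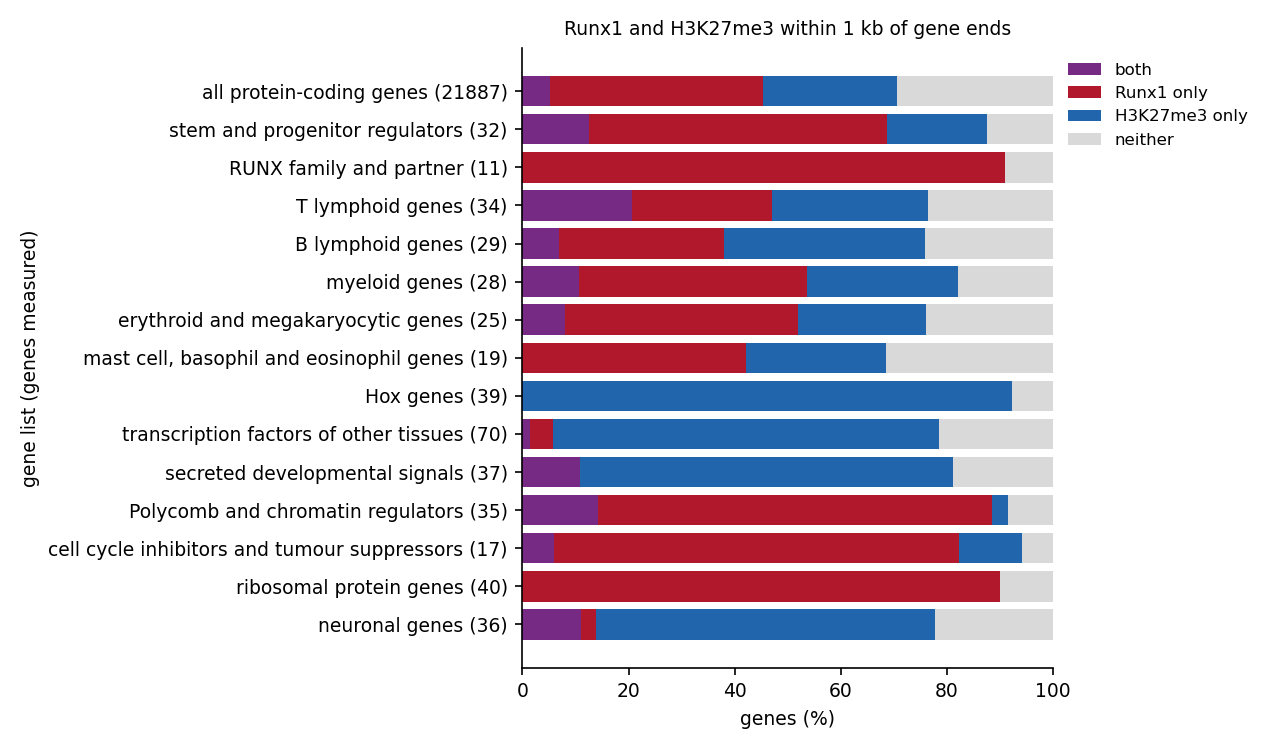
Percent of genes (horizontal axis) with both Runx1 and H3K27me3, Runx1 only, H3K27me3 only and neither within 1 kb of gene ends, for all protein-coding genes and 14 gene lists (vertical axis, with the number measured). RUNX family, ribosomal and Hox genes show no gene with both, and T lymphoid genes show the largest share with both, 7 of 34.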

How the data were processed

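Chromatin immunoprecipitation with Runx1, H3K27me3 and Ezh2 antibodies was sequenced in 2 replicates each. The authors used Bowtie2 2.2.1, Picard, SAMtools, MACS2 2.0.10 and mm10, per the submitters' processing notes. The authors deposited 1 peak list per antibody library, and the input file used for each call was not given in the sources used here. The deposited lists give each peak an integer score, the fold over input, and a −log10 p-value and −log10 q-value, and the narrow lists a summit offset in bases. These values are the authors'. Only the fold, the −log10 q-value, the −log10 p-value and the summit were used here, and the fold of a region is that of its highest peak.

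From the lists, each antibody's 2 replicates were merged, and regions with a peak of both replicates were kept. Densities are summits per Mb of callable genome, which leaves out stretches of over 50 kb with no peak of any list. Gene positions are RefSeq's on GRCm38.p6, the build mm10 is made from. A gene carried an antibody where both replicates had a peak within 1 kb of the same end. Named genes were the 8 of highest Runx1 and the 8 of highest H3K27me3 fold with both at 1 end, the 4 highest with each alone, the 6 highest just outside the mark, and in each list every gene with both and up to 3 others per class. One gene that the rule names is not reported here. Regions were named by the same kind of rule, 5 per class. Members, lists and rules were chosen with earlier results of these data known. Python 3.11.15, numpy 2.4.6, pandas 2.3.3 and matplotlib 3.10.9 were used, and the interval and density steps were tested on simulated data. Alternatives tried were stricter q limits, equal list lengths, either replicate, joined regions, other overlaps, bands, windows and gene ends, the whole span, and leaving out each replicate. No model was fitted across genes.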

Additional observations from a re-analysis of the deposited data

Results flagged for a closer look

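Runx1 and Ezh2 summits moved in opposite directions around the mark in both replicates. The log2 density ratio inside over far outside was −1.89 for Runx1 and 7.76 for Ezh2, and just outside over far outside it was −1.55 for Runx1 and 4.33 for Ezh2. The difference was not tested.

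Against H3K27me3 with q of at most 0.01, the ratios of Runx1 had opposite signs by distance to gene ends. Inside over far outside the ratio was 0.0581 more than 1 kb from gene ends and −0.44 within 1 kb of them, and just outside over far outside it was 0.39 and −0.94 in the same order. Far outside these stricter regions also held weaker marked regions, and its densities were 17.7 and 138 per Mb. More than 10 kb from any marked region they were 24.6 and 190. Those lay above the replicate means inside the stricter regions, 18.5 and 102, and just outside them, 23.2 and 71.7. The band just outside held 65 summits in each replicate more than 1 kb from gene ends, and 21 and 20 within 1 kb. The difference was not tested.

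The ratio of Runx1 density inside over outside the mark was 0.30 on the X chromosome and −1.59 on the autosomes. The X value rests on 14 and 15 summits inside the mark. Of the X marked regions 19.3% lay within 1 kb of a gene end, against 8.19% on the autosomes, and the difference in density was not tested.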

How the results depend on the processing

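Of 92 alternatives over 7 results, 36 moved the value by less than 1 SD of the 4 single-list pairs, or for the count of genes by less than 1.5 times, 44 moved it by more and 12 turned its sign. Leaving out 1 replicate gave 4.85% to 10.8% of Runx1 regions touching the mark, a log2 density ratio of −2.36 to −0.98 inside and −2.39 to −1.41 just outside over far outside, a median distance of 22.7 to 35.7 kb, a log2 fold ratio of −0.0852 to 0.0379, a log2 ratio of gene shares of −1.83 to −1.52 and 1222 to 1486 genes with both. The fold ratio turned negative without Runx1 replicate 2 (−0.0852), H3K27me3 replicate 1 (−0.08) and H3K27me3 replicate 2 (−0.02).

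The H3K27me3 threshold changed most. In the order share touching, density ratio inside, density ratio just outside, median distance, fold ratio, ratio of gene shares and genes with both, H3K27me3 with q of at most 0.01 gave 0.702%, 0.53, 0.34, 427 kb, 0.32, −0.60 and 200. Both antibodies with q of at most 0.01 gave 0.721%, 0.55, 0.35, 421 kb, 0.44, −0.70 and 175, and the 20000 H3K27me3 peaks of lowest p per list gave 2.03%, −0.23, 0.21, 139 kb, 0.58, −1.02 and 441. The signs of both density ratios thus changed with the threshold, except inside for the 20000 peaks. Far outside was set by distance from the regions kept, so under these limits it also held weaker marked regions. Its density was 22.0 per Mb with H3K27me3 q of at most 0.01 and 22.3 with the 20000 peaks, against 30.5 for all regions. The cause of the sign changes was not tested. Within the H3K27me3 regions with q of at most 0.01, more than 1 kb from gene ends the density ratios were 0.0581 inside and 0.39 just outside, and within 1 kb of gene ends −0.44 and −0.94. For all regions within 1 kb of gene ends the ratio was −1.98 just outside. These splits were chosen after seeing the data.

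H3K27me3 in either replicate gave −2.55 inside, −2.52 just outside, 20.6 kb, a fold ratio of −0.0220 and a ratio of gene shares of −1.85. Runx1 with q of at most 1e-05 gave a fold ratio of 0.24 and a ratio of gene shares of −2.0. Regions under 3 kb apart joined gave a fold ratio of −0.0202. The whole span gave −1.19 inside and −0.85 just outside, bases over 1 kb from gene ends gave 37.6 kb, and a band of 0.5 kb gave −1.93 just outside. Gene windows of 5 kb gave a ratio of −0.76 and 4036 genes, gene starts only −2.02 and 640 genes, and both at the same end a ratio of −1.85.

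No paired analysis was possible because the results come from peak lists with no test across replicates. Read depth is unknown, so a weak mark or a weak Runx1 peak missing from a list was not detectable at that depth and is not shown to be absent. Different fixation and inputs for Runx1 and H3K27me3 cannot be told apart from the antibodies.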
